A study of Mus musculus with 6 samples.

Results

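The vomeronasal type 1 receptor genes (Vmn1r) of the mouse were examined in methylated DNA captured from whole lung. Members were the protein-coding genes on the autosomes whose symbol is Vmn1r followed by a number, in the RefSeq annotation of GRCm38.p6 (the assembly of mm10). This gave 230 of 20665 autosomal protein-coding genes. Of 231 symbols of that form, 1 is annotated as a pseudogene and was not counted. Membership goes by symbol, gene type and chromosome, while the family itself was picked for description with earlier results of these data known. Vmn1r186 and Vmn1r187 are listed in the first 3 Mb of chromosome 7, where no autosome had a peak in any list, and 105 of the 20665 genes lie in the first 3 Mb of a chromosome in the table. Those positions may belong to another sequence of the assembly than the main chromosome, so these 2 members could not be assessed. They remain in the counts and medians, with no distance of their own given. Without them the shares of members with a peak were 0.877% to 3.51% over the libraries.

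Vmn1r genes encode G-protein-coupled receptors of the vomeronasal organ, a chemosensory organ of the nose that detects pheromones and other social odours. Each sensory neuron of the apical layer of that organ uses mainly one of these receptors, which signal through the G protein Gαi2 and the channel Trpc2. The genes lie in large tandem arrays and mostly have their coding sequence in a single exon. Methyl-binding-domain capture followed by sequencing (MBD-seq) enriches fragments that carry methylated CpG dinucleotides. A peak therefore needs both CpG sites and their methylation, and a stretch with few CpG sites can lack a peak whatever its methylation.

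The study had 6 libraries, described as biological replicates, from lungs of mice aged 12 to 16 months. The 3 transgenic animals carried SPC-DNMTdelta3B/DG, a deletion variant of the DNA methyltransferase DNMT3B under the surfactant protein C promoter, which is active in alveolar type 2 cells, and the 3 wild-type animals had no transgene. The genotype of transgenic replicate 2 is spelled SPC-DNMTdeltaB/DG in the labels. The labels do not say from which founder line each transgenic animal came, and they give no sex. Whole-lung DNA mixes the alveolar type 2 cells with all other lung cells, so a change in these cells alone and a smaller change in all cells cannot be told apart. The lists hold peaks, not expression, and the lung identity of the samples was not checked by marker genes.

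Read depth is unknown. The deposited lists held 120349, 116352 and 78952 peaks in transgenic replicates 1, 2 and 3, against 60131, 111211 and 30640 in wild-type replicates 1, 2 and 3. Wild-type replicate 3 stood apart with the shortest list and a median peak width of 197 bp, against 376 to 460 bp in the other 5 lists. Counts of genes with a peak move with list length, and results are therefore also given without that library.

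The Vmn1r genes were short, and their promoter windows were poor in CpG. The median gene span was 924 bp (quartiles 918 and 956 bp, range 870 to 33695 bp), against a median of 17491 bp over all autosomal protein-coding genes. Promoter windows of 300 bases, from 250 before to 50 after the RefSeq start, were found for 205 of the 230 members. They held 1.502 CpG on average (median 1, range 0 to 6), and 44 of them (21.5%) held none. Over all 20085 promoter windows of autosomal protein-coding genes the mean was 15.7 (median 14), and 4.40% held none. At most 2 CpG were found in 81.0% of the Vmn1r windows, against 17.5% of all windows. A count of 10 or more was reached by 0 Vmn1r windows and by 57.9% of all windows. The other chemosensory receptor families had similar means, with 1.48 CpG in 116 windows of type 2 vomeronasal receptor genes, 1.28 in 938 windows of olfactory receptor genes and 1.48 in 31 windows of Tas2r bitter taste receptor genes. In 180 of the 205 Vmn1r windows (87.8%) the first base after the RefSeq start begins an ATG, against 7.65% of all windows, so such a window holds the sequence just before an ATG and may hold no transcription start.

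**Figure D1:**
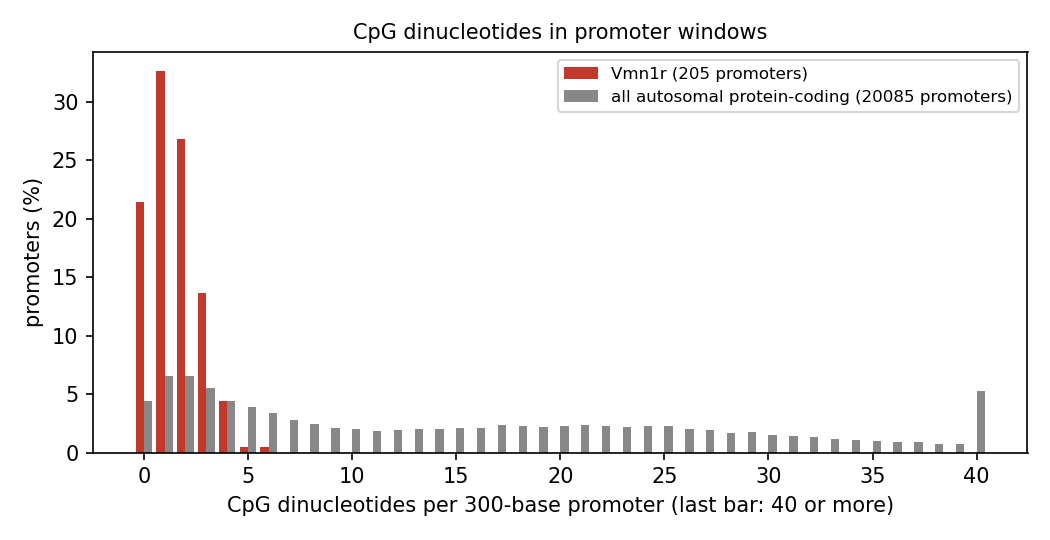
The share of 300-base promoter windows (y axis, percent) with each number of CpG dinucleotides (x axis) is drawn for 205 Vmn1r windows in red and for all 20085 windows of autosomal protein-coding genes in grey. The Vmn1r windows lie between 0 and 6 CpG, and 57.9% of all windows have 10 or more.

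Promoter windows from the RefSeq table of GRCm38.p6 are shown 5′ to 3′ for 5 members, with each CpG in capitals. The first 3 belong to members that had a peak nearby in 5 or 6 lists, Vmn1r54 had the most CpG among the 205 members with a window, and the window of Vmn1r111 is letter for letter the same in 6 genes.
Vmn1r48, chr6:90036792-90037091, minus strand: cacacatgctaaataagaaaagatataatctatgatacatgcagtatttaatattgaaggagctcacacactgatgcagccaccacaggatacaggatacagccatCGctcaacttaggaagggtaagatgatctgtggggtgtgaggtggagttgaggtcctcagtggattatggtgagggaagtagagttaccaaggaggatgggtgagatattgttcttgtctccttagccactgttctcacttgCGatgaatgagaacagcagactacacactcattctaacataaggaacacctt
Vmn1r14, chr6:57233189-57233488, plus strand: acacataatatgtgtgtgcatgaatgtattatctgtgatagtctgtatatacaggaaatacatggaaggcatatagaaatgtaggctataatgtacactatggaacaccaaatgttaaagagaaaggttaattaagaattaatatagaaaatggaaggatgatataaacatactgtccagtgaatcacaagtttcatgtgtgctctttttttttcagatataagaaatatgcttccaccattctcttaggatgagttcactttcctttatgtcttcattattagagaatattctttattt
Vmn1r167, chr7:23505540-23505839, minus strand: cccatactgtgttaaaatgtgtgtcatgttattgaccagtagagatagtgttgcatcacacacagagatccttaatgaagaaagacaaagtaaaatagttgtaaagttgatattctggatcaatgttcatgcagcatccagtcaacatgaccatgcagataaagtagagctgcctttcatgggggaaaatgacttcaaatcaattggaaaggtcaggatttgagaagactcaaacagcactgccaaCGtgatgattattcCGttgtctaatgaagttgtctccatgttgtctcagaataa
Vmn1r54, chr6:90268856-90269155, plus strand: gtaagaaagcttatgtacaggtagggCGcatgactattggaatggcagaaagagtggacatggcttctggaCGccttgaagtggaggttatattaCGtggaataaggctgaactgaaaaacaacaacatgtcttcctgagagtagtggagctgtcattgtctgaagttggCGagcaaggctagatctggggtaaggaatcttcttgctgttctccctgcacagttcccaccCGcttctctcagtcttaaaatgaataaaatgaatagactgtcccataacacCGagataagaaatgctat
Vmn1r111, chr7:20703167-20703466, minus strand: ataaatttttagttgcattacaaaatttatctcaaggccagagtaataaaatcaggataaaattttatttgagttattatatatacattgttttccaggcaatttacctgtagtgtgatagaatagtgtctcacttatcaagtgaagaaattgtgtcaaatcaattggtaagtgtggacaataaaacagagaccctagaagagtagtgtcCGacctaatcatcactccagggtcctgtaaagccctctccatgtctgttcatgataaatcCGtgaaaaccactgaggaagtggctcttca

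The window of Vmn1r48 held 2 CpG, that of Vmn1r14 0, that of Vmn1r167 2 and that of Vmn1r54 6. Vmn1r111 shares its window with Vmn1r118, Vmn1r131, Vmn1r138, Vmn1r166 and Vmn1r257, all on chromosome 7. In all, 54 members fell into 21 groups with an identical window, 52 of them on chromosome 7. The remaining pair was Vmn1r47 and Vmn1r48 on chromosome 6. In 74 of 205 windows (36.1%) at least 50% of the 36-base words also occurred in the window of another autosomal protein-coding gene. The labels do not say how reads with several equally good positions were placed, so values at such copies are uncertain.

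No promoter window of a Vmn1r gene was overlapped by a peak. This was so in each of the 6 libraries, and a count of 0 of 205 allows a share of up to 1.46%, taken as 3 counts of the total. Over all 20085 windows, peaks overlapped 3.94%, 3.21% and 2.36% in transgenic replicates 1, 2 and 3, and 1.46%, 3.33% and 0.558% in wild-type replicates 1, 2 and 3. In wild-type replicates 1 and 3 the share over all windows was within what a count of 0 allows, so a difference was not detectable there. A window can lie inside a longer annotated span, as for Vmn1r14 below, and then does not cover the first bases of that span.

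Few Vmn1r genes had a peak in or within 1 kb of the gene. The number was 8, 7 and 6 of 230 in transgenic replicates 1, 2 and 3, and 4, 8 and 2 of 230 in wild-type replicates 1, 2 and 3. As shares these were 3.48% (95% exact binomial interval 1.51% to 6.74%), 3.04% (1.23% to 6.17%) and 2.61% (0.963% to 5.59%) in the transgenic libraries. In the wild-type libraries they were 1.74% (0.476% to 4.39%), 3.48% (1.51% to 6.74%) and 0.870% (0.105% to 3.11%). Wild-type replicate 2 was level with the highest transgenic library, and the groups overlapped. The mean was 3.04 ± 0.435% in transgenic and 2.03 ± 1.33% in wild-type lungs (SD, n = 3 each), a difference of 1.01 percentage points that was smaller than the wild-type SD. Without wild-type replicate 3 the wild-type mean was 2.61% and the difference 0.435 points. No p-value is given for these shares, because the gene list was chosen with earlier results of these data known. The intervals cover counting error only.

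Over all 20665 autosomal protein-coding genes, 69.5%, 68.2% and 60.4% had a peak within 1 kb in transgenic replicates 1, 2 and 3, and 53.1%, 67.4% and 32.5% in wild-type replicates 1, 2 and 3. Those genes are longer and offer wider windows. Per megabase of window, the Vmn1r genes held 7.15, 7.15 and 5.96 peak midpoints in the transgenic libraries and 2.38, 7.15 and 3.58 in the wild-type libraries. The windows of all genes held 60.6, 57.5 and 37.4 per Mb in the transgenic and 27.6, 54.4 and 12.4 per Mb in the wild-type libraries. The density over all genes was thus 3.47 to 11.6 times that at Vmn1r genes, lowest in wild-type replicate 3. Peaks covered 0.451 ± 0.0767% of Vmn1r windows in transgenic and 0.272 ± 0.185% in wild-type lungs (SD, n = 3 each), against 2.43 ± 0.770% and 1.35 ± 1.18% of the windows of all genes. The Vmn1r densities rest on 2 to 6 peak midpoints per library in 0.839 Mb.

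Type 2 vomeronasal and olfactory receptor genes lay between the Vmn1r genes and all genes. Of 122 type 2 vomeronasal receptor genes, which have large multi-exon spans, 27.9%, 26.2% and 23.0% had a peak within 1 kb in the transgenic libraries and 16.4%, 24.6% and 14.8% in the wild-type libraries. Of 1100 olfactory receptor genes, the shares were 9.91%, 10.5% and 6.91% in the transgenic and 6.91%, 9.18% and 2.27% in the wild-type libraries. None of 35 Tas2r genes had a peak in any library, which allows a share of up to 8.57% by the same limit of 3 counts. Per megabase, type 2 vomeronasal receptor windows held 7.57 to 17.5 peak midpoints over the 6 libraries and olfactory receptor windows 6.53 to 30.1, against 2.38 to 7.15 in Vmn1r windows. These differences between families were not tested.

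**Figure D2:**
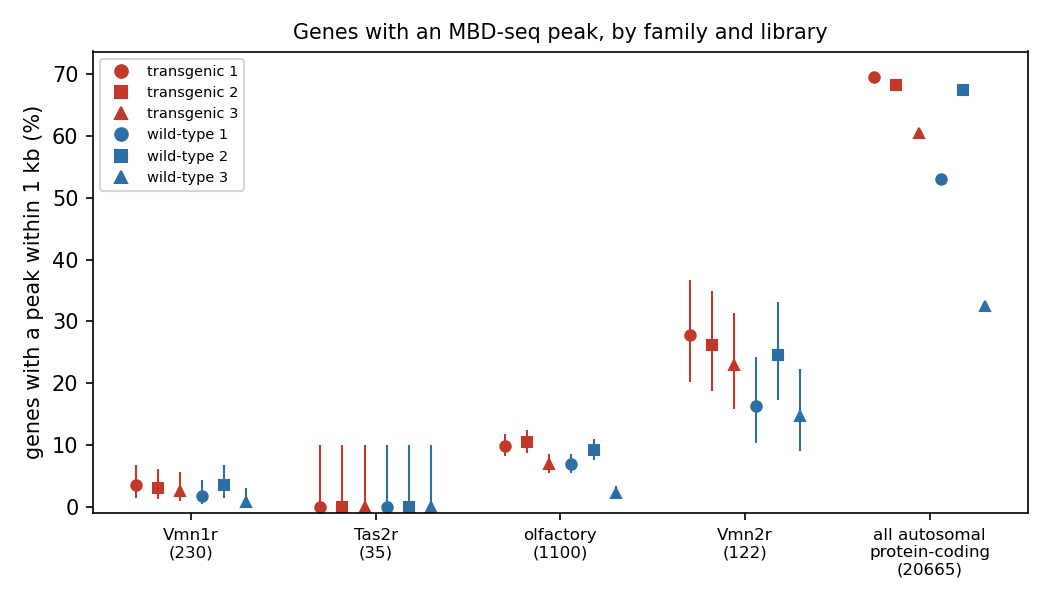
The share of genes with a peak within 1 kb (y axis, percent, with 95% exact binomial intervals) is shown for 4 receptor families and all autosomal protein-coding genes (x axis, number of genes in brackets), in 3 transgenic (red) and 3 wild-type (blue) libraries. Vmn1r genes lie between 0.870% and 3.48%, and all genes between 32.5% and 69.5%.

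The peaks fell on 8 members, and 222 of 230 (96.5%), Vmn1r186 and Vmn1r187 included, had none in any list, against 25.6% of all autosomal protein-coding genes. The 8 genes were Vmn1r14 and Vmn1r48 on chromosome 6 and Vmn1r56, Vmn1r63, Vmn1r65, Vmn1r83, Vmn1r88 and Vmn1r167 on chromosome 7. Of the 43 members with a span over 1000 bp 5 were among them, and of the 187 shorter members 3. Vmn1r14 and Vmn1r48 had a peak in all 6 lists, as did 29% of all genes.

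In every list but wild-type replicate 3, where that of Vmn1r14 scored higher, Vmn1r48 carried the strongest peak of the family (gene span chr6:90035933-90036841). Its highest score, a value given by the authors' peak caller, was 1217, 932 and 549 in transgenic replicates 1, 2 and 3, against 274, 761 and 56.3 in wild-type replicates 1, 2 and 3. The group ranges overlapped, since wild-type replicate 2 was above transgenic replicate 3. In 5 of the lists the peak was 2591 to 2708 bp wide and its score was at or above that of 99.0% to 99.7% of the peaks of the list. In wild-type replicate 3 it was 401 bp wide and lay 445 bp from the gene, and its score was at or above that of 14.7% of the list. The gene is on the minus strand, and the wide peak covered the last 20 to 94 bp of the gene span and the sequence beyond it. Its near edge lay 815 to 889 bp downstream of the start of the gene in those 5 lists, so the peak was at the far end of the gene and not at the promoter printed above. Vmn1r47 (chr6:90021888-90022820), whose promoter window is identical to that of Vmn1r48, had its nearest peak 10451 to 10686 bp away over the 6 lists.

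Vmn1r14 (chr6:57226155-57234350) has the promoter with 0 CpG and had 2 peaks in every list. Its highest score was 427, 354 and 195 in the transgenic libraries, against 131, 264 and 78.1 in the wild-type libraries. Wild-type replicate 2 was again between the transgenic values. The peaks lay 3313 to 3715 bp and 7248 to 7338 bp upstream of the RefSeq start whose promoter is printed above, inside or at the edge of the longer annotated span of 8196 bp. That edge is the 5′ end of the span on the plus strand. The farther peak overlapped it in every list but wild-type replicate 3, where it lay 54 bp before it. Vmn1r63 (chr7:5802345-5826229) likewise had its peaks upstream of its RefSeq start on the minus strand, at 4916 to 4997 bp. It had a further one at 7738 bp in transgenic replicate 3. All of them lay inside its annotated span of 23885 bp.

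Vmn1r167 (chr7:23504642-23505589) was the 1 gene with a peak among the 86 members of the largest cluster. The score was 360, 220 and 125 in the transgenic libraries, against 107 and 192 in wild-type replicates 1 and 2 and no peak in wild-type replicate 3. On this minus-strand gene the peak lay 1764 to 1872 bp downstream of the start, past the end of the gene by 817 to 925 bp. Vmn1r65 (chr7:6007750-6011010) had scores of 234, 195 and 102 in the transgenic libraries, against 86.5, 148 and none in the wild-type libraries, and its strongest peak also lay past the far end of the gene, 4039 to 4235 bp from the start. For Vmn1r83 the peak found in 3 lists lay 2748 to 2768 bp downstream of the start. In transgenic replicate 2 this gene had a further peak inside its span, 239 bp downstream of the start (score 73.1). Of the 6 members with both a peak and a promoter in the table, 4 therefore had their most frequent peak on the downstream side and 2 on the upstream side.

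Vmn1r56 (chr7:5194916-5196747) had scores of 194, 201 and 140 in the transgenic libraries and a peak in the wild-type group in replicate 2 alone, where the score of 257 was the highest of all 6. Vmn1r63 had scores of 221, 86.0 and 57.9 in the transgenic libraries and of 82.4 in wild-type replicate 2, with no peak in wild-type replicates 1 and 3. Both would have counted as present in all transgenic and no wild-type libraries without wild-type replicate 2. Vmn1r83 had a peak in transgenic replicates 1 and 2 (scores 60.2 and 93.2) and wild-type replicate 2 (61.6). Vmn1r88 had one in transgenic replicate 1 (82.3) and wild-type replicate 2 (77.6), beside the pseudogene Gm4879.

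None of the 8 genes separated the groups. The mean highest score was higher in transgenic lungs for all 8, with ratios of means from 1.06 (Vmn1r88) to 4.43 (Vmn1r63). The share of all genes with a higher transgenic mean was not computed. Every transgenic score was above every wild-type one at 7.13% of all genes, and below at 0.00484%. The shared direction is therefore not read as a result about these 8 genes. The two-sided exact permutation p for single genes was 0.20 to 1, where 3 against 3 libraries cannot go below 0.10. The median score of whole lists was 127, 103 and 91.3 in the transgenic and 75.3, 103 and 70.6 in the wild-type libraries. The part of library quality in the differences at these genes was not tested.

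**Figure D3:**
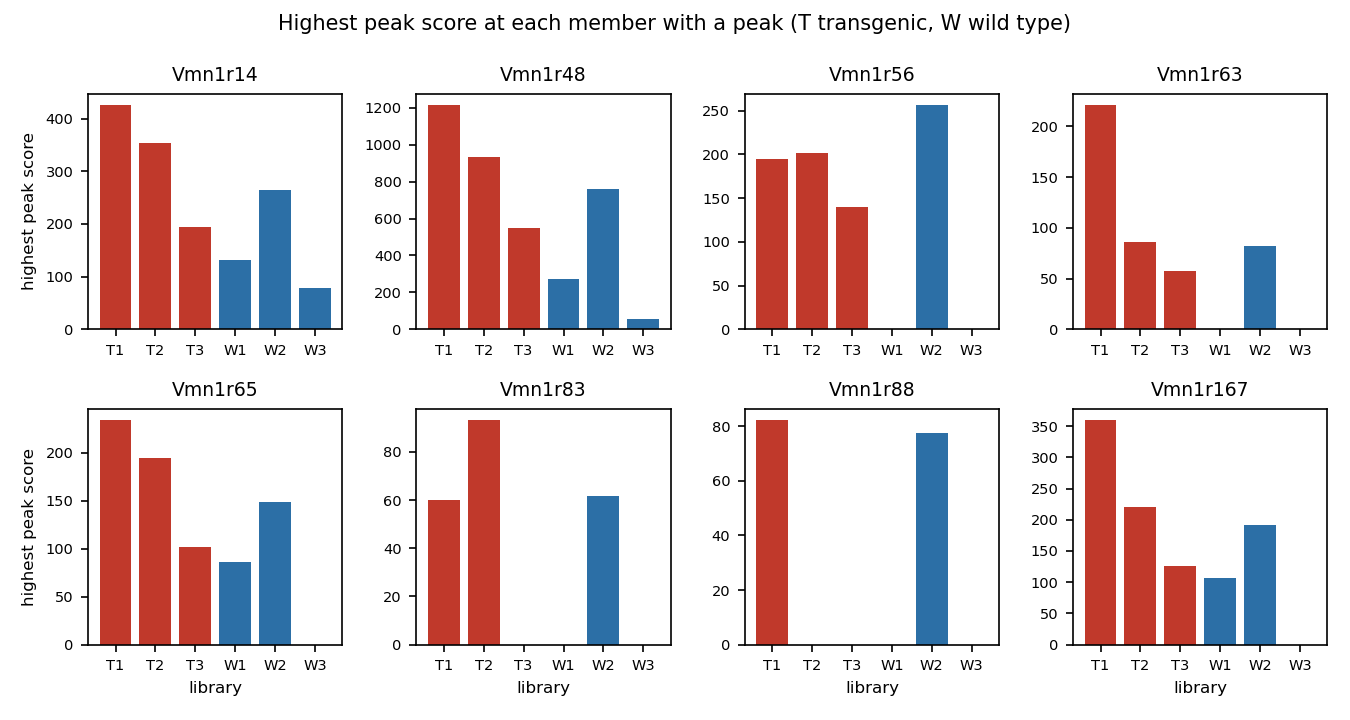
Bars give the highest peak score within 1 kb (y axis, the authors' peak caller's own value, a separate scale for each gene, 0 where the list has no peak) of the 8 Vmn1r genes with a peak, in transgenic (T, red) and wild-type (W, blue) libraries 1 to 3. Wild-type replicate 2 is never below all 3 transgenic libraries, and wild-type replicate 3 has a bar for Vmn1r14 and Vmn1r48 alone.

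Across all autosomal protein-coding genes, 0.571% had a peak within 1 kb in all 3 transgenic and no wild-type lists and 0% had the opposite pattern. Among the 230 Vmn1r genes the counts were 0 and 0. Scores of all transgenic above all wild-type libraries were found at 7.13% of all genes and scores below at 0.00484%, and at 0 and 0 of the Vmn1r genes. With 222 members lacking any peak, at most 8 could have met the score rules.

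Vmn1r genes fell into 14 clusters, taken as runs of members at most 1 Mb apart, and 221 of the 230 lay in 8 clusters of 5 or more. Chromosome 7 held 126 members, chromosome 6 51, chromosome 13 35, chromosome 17 14, chromosome 4 2, and chromosomes 1 and 18 1 each. The cluster with the largest share of members with a peak was that of 11 genes from Vmn1r55 to Vmn1r65 on chromosome 7 (5146490 to 6011010). There 3 of 11 had a peak in each transgenic library, against 1, 3 and 0 in wild-type replicates 1, 2 and 3. The cluster of 24 genes from Vmn1r66 to Vmn1r89 had 2, 1 and 0 members with a peak in the transgenic libraries and 0, 2 and 0 in the wild-type libraries. In the cluster of 86 genes on chromosome 7 (20101158 to 24055691) 1 gene had a peak in 5 libraries and none in wild-type replicate 3. On chromosome 6 the clusters of 28 and 15 genes each had 1 gene with a peak in all 6 libraries, and the cluster of 8 genes from Vmn1r32 to Vmn1r39 had none. No member of the 35 on chromosome 13 (22087878 to 23250323) or of the 14 on chromosome 17 (20419163 to 21314886) had a peak in any library. In all, 9 clusters with 66 members had none, 1 of them being the pair Vmn1r186 and Vmn1r187.

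The nearest peak usually lay several kilobases from a Vmn1r gene. The median distance was 11.9, 11.9 and 13.1 kb in transgenic replicates 1, 2 and 3, and 14.6, 12.2 and 27.3 kb in wild-type replicates 1, 2 and 3. The means of these medians were 12.3 ± 0.666 kb in transgenic and 18.01 ± 8.09 kb in wild-type lungs (SD, n = 3 each), and the ranges overlapped. Without wild-type replicate 3 the wild-type mean was 13.4 kb, and the difference of -5.72 kb was -1.10 kb. Over all autosomal protein-coding genes the median was 0 kb in 5 libraries, since a peak overlapped the gene itself, and 13.5 kb in wild-type replicate 3. For olfactory receptor genes the medians were 14.0, 13.3 and 16.4 kb in the transgenic and 19.9, 14.5 and 37.7 kb in the wild-type libraries.

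The clusters differed in these distances. In the cluster of 8 genes on chromosome 6 the median was 8.16, 6.07 and 9.74 kb in the transgenic and 9.84, 9.73 and 20.3 kb in the wild-type libraries. In the chromosome 17 cluster it was 20.1, 20.3 and 20.3 kb in the transgenic and 20.1, 20.3 and 35.5 kb in the wild-type libraries, so all lists but the shortest lay close together. In the cluster of 86 genes it was 10.2, 11.1 and 10.3 kb in the transgenic and 12.7, 11.2 and 18.3 kb in the wild-type libraries. Wild-type replicate 3 had the longest median in each of the 8 clusters of 5 or more genes. Of the 228 members outside the first 3 Mb of a chromosome, Vmn1r51 on chromosome 6 had the longest distance over all lists, with no peak closer than 66.2 kb.

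**Figure D4:**
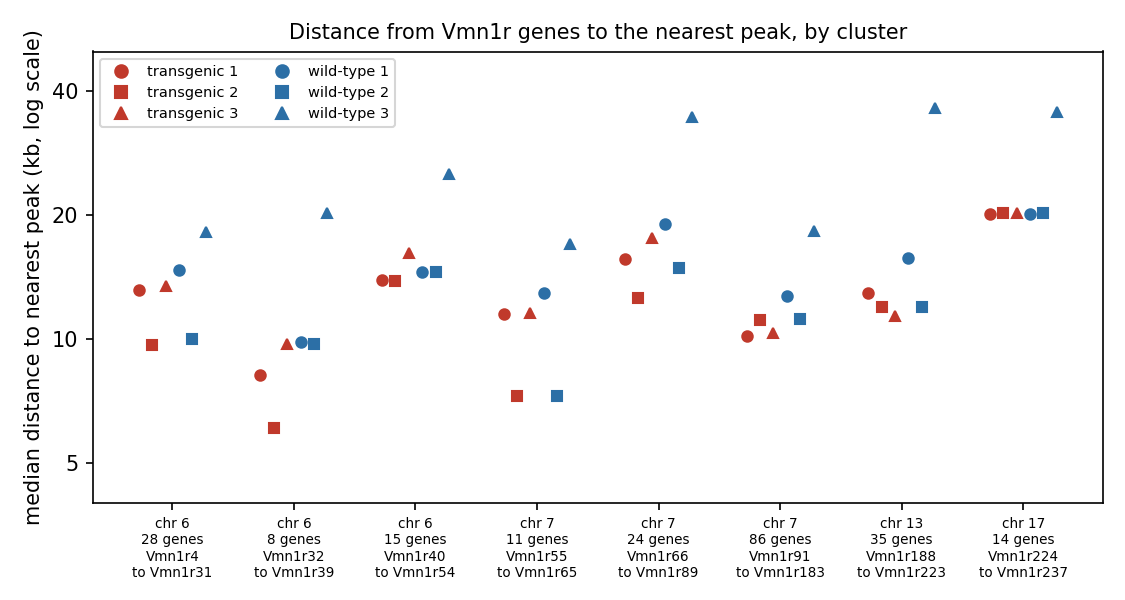
The median distance to the nearest peak (y axis, kb, log scale) is given for the 8 Vmn1r clusters of 5 or more genes (x axis) in each transgenic (red) and wild-type (blue) library. Wild-type replicate 3 is the highest point in every cluster, and the chromosome 17 cluster has the 5 other libraries together near 20 kb.

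Just outside the 1 kb limit were Vmn1r45 on chromosome 6, with a peak at 1952 to 1991 bp in all 6 lists, Vmn1r218 on chromosome 13, with one at 1879 bp in wild-type replicate 1, and Vmn1r71 on chromosome 7, with one at 1910 bp in transgenic replicate 2. Just inside it were the peaks of Vmn1r167 at 817 to 925 bp. The nearest peak of Vmn1r65 lay at 875 bp in transgenic replicate 3 and 845 bp in wild-type replicate 1. That of Vmn1r83 lay at 870 bp in transgenic replicate 1 and 880 bp in wild-type replicate 2. With 500 bp on each side, the mean share of members with a peak was 1.74% in transgenic and 1.16% in wild-type lungs, against 3.04% and 2.03% with 1 kb. Within 5 kb of a peak were 39, 41 and 30 members in the transgenic libraries, against 25, 35 and 11 in the wild-type libraries. As shares of members these were 17.0%, 17.8% and 13.0%, against 10.9%, 15.2% and 4.78%. Over all autosomal protein-coding genes the shares were 76.9%, 76.0% and 68.3% in the transgenic and 61.0%, 75.2% and 37.9% in the wild-type libraries. Within 25 kb were 80.4%, 81.7% and 77.4% of members in the transgenic and 70.0%, 77.4% and 48.3% in the wild-type libraries, against 93.9%, 93.7% and 89.8%, and 85.3%, 93.2% and 62.3%, of all autosomal protein-coding genes.

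The low density was seen at the genes and next to them, while the clusters outside the gene windows had densities near or above those of the autosomes. In the 11 clusters with more than 1 member, the 11.8 Mb outside the gene windows held 46.3, 47.2 and 39.4 peaks per Mb in transgenic replicates 1, 2 and 3 and 30.6, 43.2 and 19.6 in wild-type replicates 1, 2 and 3. The autosomes as a whole, each taken from its first to its last peak in any list, held 47.8, 46.1 and 31.1 per Mb in the transgenic and 23.6, 44.0 and 11.8 per Mb in the wild-type libraries. From the edge of the gene out to 25 kb, density was higher in each class of distance than in the one before it, in every library. The same rise was seen in every library around olfactory receptor genes and around all autosomal protein-coding genes. Within 1 kb of the span, all genes held 29.4, 27.3 and 17.5 peaks per Mb in the transgenic and 11.5, 27.0 and 5.20 in the wild-type libraries. Around Vmn1r genes the density within 1 kb of the span was 6.52, 6.52 and 4.35 peaks per Mb in the transgenic and 2.17, 8.70 and 4.35 in the wild-type libraries. It rested on 1 to 4 peaks per library in 0.46 Mb. From 1 to 5 kb it was 20.1, 22.9 and 14.1 in the transgenic and 14.1, 18.5 and 7.62 in the wild-type libraries. From 5 to 10 kb it was 38.4, 40.8 and 36.04 in the transgenic and 27.9, 36.04 and 16.3 in the wild-type libraries.

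From 10 to 25 kb the density was highest, with 62.5, 60.3 and 52.7 peaks per Mb in the transgenic and 40.3, 56.5 and 29.6 in the wild-type libraries. This was above the 52.3, 50.1 and 34.7 (transgenic) and 27.0, 49.3 and 13.5 (wild type) at the same distance from all autosomal protein-coding genes. Olfactory receptor genes were also low next to the gene, at 9.62, 9.16 and 6.87 peaks per Mb within 1 kb in the transgenic and 7.79, 8.24 and 3.21 in the wild-type libraries, but inside the gene spans they held 9.98 to 51.8 per Mb over the 6 libraries, against 2.64 to 7.91 inside Vmn1r spans. Type 2 vomeronasal receptor genes were also low at the gene. They held 7.51 to 17.8 peaks per Mb inside the spans over the 6 libraries and 8.26 to 12.4 within 1 kb. From 1 to 5 kb they held 9.38 to 30.2. These profiles are descriptions, without a test.

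**Figure D5:**
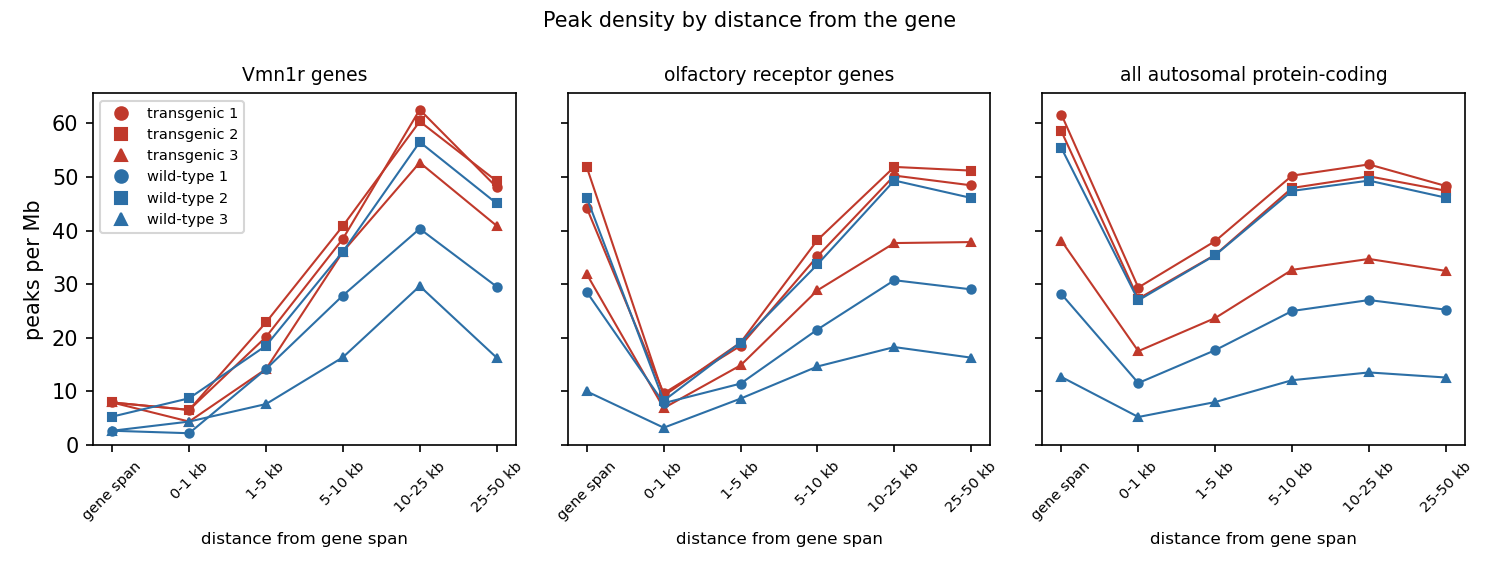
Peak density (y axis, peak midpoints per Mb) is drawn inside the gene spans and in 5 classes of distance from them (x axis) for Vmn1r genes, olfactory receptor genes and all autosomal protein-coding genes, in 3 transgenic (red) and 3 wild-type (blue) libraries. Around Vmn1r genes every library is low in the span and within 1 kb and highest at 10 to 25 kb.

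Other genes inside the Vmn1r clusters were longer, with a median span of 8964.5 bp. Of 68 other protein-coding genes that lie within the clusters, 48.5%, 44.1% and 39.7% had a peak within 1 kb in the transgenic and 30.9%, 45.6% and 19.1% in the wild-type libraries. Examples with a peak in all 6 lists were the zinc-finger gene Zfp324 (scores 1729, 1112 and 493 in the transgenic and 295, 813 and 119 in the wild-type libraries) and the type 2 vomeronasal receptor gene Vmn2r55 (761, 733 and 336 in the transgenic and 203, 509 and 117 in the wild-type libraries). By length, 1 of 9 such genes with a span up to 1000 bp had a peak in any list, and 33 of 59 longer ones. The 9 short genes include V1ra8, V1rd19 and Vmn1r-ps103, whose symbols fall outside the naming rule and which had none. No test was made against the Vmn1r genes. Zfp324 and Vmn2r55 were chosen after their values were seen.

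Members were also grouped by how much of the promoter window they share with other genes and by its CpG count. Among members whose promoter window shared no 36-base word with another gene, 2 of 84 had a peak in any list, and among those that shared at least 50% of words 1 of 74 had one. The remaining 47 members had 3. Median distances to the nearest peak were 12.5 to 31.8 kb over the 6 libraries for the first class and 10.2 to 17.6 kb for the class with at least 50% shared. By CpG content, 2 of 44 members with 0 CpG in the window, 4 of 122 with 1 or 2 and 0 of 39 with 3 or more had a peak within 1 kb of the gene. The window covers the promoter alone, and the CpG content of the gene bodies and of the peaks was not analysed here.

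No differential region of the authors' deposited table lay within 1 kb of a Vmn1r gene. Over all autosomal protein-coding genes 0.513% had a region higher in transgenic lungs within 1 kb and 0.247% a lower one, and a count of 0 of 230 is near that low background. At an FDR of 0.05 or less the share of all genes was 0.31%, again with 0 members. Within 2 kb the shares of all genes were 0.518% and 0.261%, again with 0 members. Within 50 kb, 6 members had a higher region, against 1.2% of all genes, and 0 had a lower one, against 0.803%. The 6 were Vmn1r229 to Vmn1r232 on chromosome 17 and Vmn1r120 and Vmn1r121 on chromosome 7, and they share 2 regions, so they are not 6 separate observations.

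The nearest region lay 17478 bp from Vmn1r230, at chr17:20864978-20866044 with the start as the table gives it. In the authors' deposited table its log2 concentration was 6.03 in transgenic and 5.27 in wild-type lungs, a 1.70-fold difference (0.76 on the log2 scale, FDR 0.0764). The peak there scored 807, 742 and 418 in the transgenic libraries, against 142, 489 and none in the wild-type libraries, and the groups overlapped. In the cluster of 86 genes on chromosome 7, a region at 21075972 to 21077269, between Vmn1r120 and Vmn1r121 and 20300 bp from Vmn1r121, had log2 concentrations of 6.45 in transgenic and 5.88 in wild-type lungs in the authors' deposited table, where the fold is 0.57 on the log2 scale at an FDR of 0.0612. Its peak scored 1033, 786 and 401 in the transgenic libraries, against 213, 541 and 80.1 in the wild-type libraries. These 2 were the only regions of the authors' deposited table that lay inside a Vmn1r cluster.

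A further 3 regions lay outside the clusters but within 200 kb of a member in the authors' deposited table. They were 90.5 kb from Vmn1r238 on chromosome 18, 121 kb from Vmn1r65 on chromosome 7 and 168 kb from Vmn1r54 on chromosome 6. In the authors' deposited table their log2 folds were 0.72, 0.78 and 0.52 and their FDR 0.0616, 0.0160 and 0.0587. All 5 regions near Vmn1r genes were higher in transgenic lungs, as were 304 of all 407 regions of the authors' deposited table.

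Genes of vomeronasal signalling and of receptor neurons were described for comparison, and not all are particular to neurons that use Vmn1r receptors. Beside those named below, the list held Gnao1, Ano1, Ano2 and Tfap2e. Of 12 such genes, 6 had a peak within 1 kb in all 6 lists, 4 in 5 lists and 2 in none, where 29% of all autosomal protein-coding genes had a peak in all 6 and 25.6% in none. Their spans ran from 2.09 to 350 kb with a median of 25.9 kb, against 17.5 kb for all genes. Trpc2, the transduction channel of vomeronasal neurons, scored 344, 195 and 82.8 in the transgenic libraries, against 50.6, 301 and 96.4 in the wild-type libraries. Gnai2, the G protein subunit that couples to these receptors, scored 285, 142 and 91.4 in the transgenic and 95, 149 and 55.3 in the wild-type libraries. Omp, the olfactory marker protein gene, scored 707, 464 and 299 in the transgenic and 139, 536 and 74.2 in the wild-type libraries, with a span of 2.09 kb. For these 3 genes the groups overlapped.

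Gng8, a G protein gamma subunit gene, and Lhx2, a homeobox gene of olfactory neurons, had no peak in any list. Of the 12 genes 0 had peaks in all libraries of 1 group alone, and 2 (Meis2 and Atf5, both transcription factor genes) had every transgenic score above every wild-type one, where the share over all genes was 7.13%. Bcl11b, a transcription factor gene needed for vomeronasal neurons, was the 1 gene of the list with a region within 1 kb in the authors' deposited table, where the fold is 0.66 on the log2 scale at an FDR of 0.0312. A higher region within 1 kb was found at 0.513% of all genes. Its highest score was 2240, 1202 and 671 in the transgenic and 274, 779 and 104 in the wild-type libraries.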

How the data were processed

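MBD-seq was done on lung DNA of 3 transgenic and 3 wild-type mice, captured with the MethylCap kit, per the labels' protocols. Sample titles gave the groups and replicate numbers. The submitters' processing notes name Bowtie, DiffBind, edgeR and mm10, without versions. Each library has its own deposited peak list, with peak names in the form MACS uses, and no label states the caller's settings. The deposited score per peak comes from the authors' caller, is at least 50 in every list, and no scaling across libraries is recorded. For each differential region the authors deposited log2 concentrations, log2 folds (transgenic minus wild type), p-values and FDR.

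Gene spans, of 49997 genes, came from RefSeq GRCm38.p6, and promoter sequences from RefSeq. A gene had a peak when 1 bp overlapped its span plus or minus 1 kb, and peak starts were converted to 1-based positions. Density counts peak midpoints. The exact test was the two-sided permutation of group means, for single genes. Nothing says whether libraries differ in date or batch. Protein sequences were not used. The members and gene lists were chosen with earlier results of these data known. The rule for named genes took members with a peak in all 6 lists, members called in either direction (at most 8 each, by their lowest score), members with a differential region within 1 kb or assigned one by the authors' annotation, the member with the highest median score in each cluster, and the member nearest to a differential region, at most 30 in all. The clause on the authors' annotation could not be applied, since the gene table pairs no Ensembl IDs with these genes. Other members named, such as the remaining ones with a peak and those far from or just outside the limit, were picked with their values known. The call rule recovered 200 of 200 planted genes among 20665 in simulated lists. Each planted gene had a peak in every simulated transgenic list and in no wild-type list. Recovery was thus set by the planting and checks the code alone, not the sensitivity of the rule in these data. Python 3.11.15, numpy 2.4.6, pandas 2.3.3, scipy 1.17.1 and matplotlib 3.10.9 were used.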

Additional observations from a re-analysis of the deposited data

How the results depend on the processing

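The transgenic minus wild-type difference in the share of Vmn1r genes with a peak was above 0 in all 14 alternatives, from 0.290 to 1.74 percentage points, and moved by less than the wild-type SD. It was 0.290 points when each list was cut to its 30640 highest-scoring peaks, and 0.435 to 1.74 points without any 1 library. The density difference of 2.38 peaks per Mb was -0.397 with equal numbers of peaks, and 1.39 to 3.77 without any 1 library; the cause was not tested. The difference in covered sequence of 1799 bp per Mb was 916 to 2764 without any 1 library. The difference in median distance was -42.4 kb when peaks scoring under 96.3, the median of all lists pooled, were dropped (the cause was not tested), and -8.62 to -1.10 kb without any 1 library. The count of genes with peaks in all transgenic and no wild-type lists was 0 in 12 of 13 alternatives and 2 without wild-type replicate 2, and the opposite count was 0 in all 13. With 1 library fewer, that count has 1 condition fewer to meet. Members near a region of the authors' deposited table were 0 within 1 kb, within 2 kb and at an FDR of 0.05 or less, and 6 within 50 kb. Members with a peak lay in 5 clusters, and on 2 chromosomes with whole chromosomes as clusters. With the replicate block the difference in shares was the same 1.01 points. The log2 highest score of each gene was also taken as a deviation from its group mean. Between same-numbered libraries these deviations correlated at -0.0383, 0.0282 and 0.0217 over 15376 genes. The numbers were therefore not taken to pair the animals. Leaving out the 2 members listed in the first 3 Mb of chromosome 7, a choice made after seeing the data, gave differences of 1.02 percentage points, -5.64 kb and 2.47 peaks per Mb. Planned protein comparisons were not run. Depth is unknown and limits what the shorter lists can show.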

Other observations

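Of 140 autosomal Vmn1r pseudogenes, 8, 9 and 6 had a peak within 1 kb in transgenic replicates 1, 2 and 3, against 5, 6 and 2 in wild-type replicates 1, 2 and 3, and 129 had none in any list. As shares these were 5.71%, 6.43% and 4.29% in the transgenic and 3.57%, 4.29% and 1.43% in the wild-type libraries, in each library above the share of the genes, and the difference was not tested. Their median distance to the nearest peak was 11.3, 10.8 and 12.3 kb in the transgenic and 14.6, 11.3 and 23.2 kb in the wild-type libraries. The neighbouring Vmn1r-ps35 and Vmn1r-ps36 on chromosome 6 shared 1 peak found in all 6 lists, with scores of 365, 331 and 207 in the transgenic and 141, 259 and 141 in the wild-type libraries. Both are counted in the shares above. In wild-type replicate 3 they were the only 2 pseudogenes with a peak, so the 1.43% there rests on 1 peak. Whether that share was above that of the genes depends on counting both. On chromosome 13, where no gene of the family had a peak, Vmn1r-ps99 had one in transgenic replicates 1 and 2 (scores 70.0 and 92.4) and in no other library. Vmn1r-ps123 on the same chromosome had one in transgenic replicate 3 alone (score 62.6). No pseudogene had a peak in all libraries of 1 group and none of the other.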
